A study of Mus musculus with 48 samples.

Results

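The proteasome subunit genes were the genes that the deposited table annotates with the KEGG pathway term Proteasome and whose normalized counts averaged at least 10 over the 48 libraries. This held for 43 of the 45 annotated genes, in a table of 24973 genes. The 2 annotated genes under that minimum were *Psmb11*, the catalytic subunit of the thymus, with a mean of 1.90, and *Ifng*, the interferon-gamma ligand, with a mean of 0.46, while the member closest above it, *Psme2b*, had a mean of 59.75. Of the 43, 18 encode the 19S regulatory particle (6 ATPases and 12 other subunits), 8 the alpha ring, 10 the beta ring, 4 the activators PA28 and PA200, 1 a near-identical copy of *Psme2*, and 2 an inhibitor and an assembly factor.

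The libraries were bulk RNA sequencing of endothelial cells, pericytes, astrocytes and microglia, sorted by flow cytometry from the brains of adult male wild-type C57BL/6 mice after transient middle cerebral artery occlusion (tMCAO), in which 1 h of occlusion was followed by 23 h of reperfusion. Each of the 8 groups, 4 cell types from the ipsilateral (ischemic) and the contralateral hemisphere, had 6 replicates, and each replicate pooled 3 to 4 animals, so that the values describe pools and not single mice. Both hemispheres of a replicate came from the same pool. The contralateral hemisphere of the operated animals served as the control and no sham-operated group was used here. Endothelial cells were sorted by VECAD, pericytes by NG2 and PDGFRβ, astrocytes by ACSA2, and microglia as CD11b positive cells with low CD45, a gate that does not by itself separate them from all infiltrating myeloid cells.

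The proteasome is the protease of the cytosol and nucleus that degrades proteins marked with ubiquitin. Its 20S core is a barrel of alpha and beta rings in which PSMB5, PSMB6 and PSMB7 carry the catalytic sites, and the 19S particle at its ends binds, unfolds and feeds in the substrate. Interferons induce PSMB8, PSMB9 and PSMB10, which replace PSMB5, PSMB6 and PSMB7, in that order, in newly built particles, and this immunoproteasome produces many of the peptides shown on MHC class I. Cells with impaired proteasomes raise the subunit genes together through the transcription factor NRF1 (gene *Nfe2l1*).

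All values are the authors' normalized counts, and a fold change is on the scale of log2(normalized count + 1). The 48 libraries held an estimated 4900000 to 17100000 reads on genes, 3 reads corresponding to 2.0 to 7.1 normalized counts, and this floor covers counting error only. Of the ipsilateral libraries, 12 are called pericytes in their titles and microglia in the table's header, or the reverse. The names in the header (column names) were used, and by them 16 of 16 cell type markers were higher in every library of their own cell type than in any other library. In 2 libraries, contralateral endothelial cells replicate 2 and ipsilateral microglia replicate 2, the summed level of the 43 genes was 206000 and 210707, against 46704 to 135143 in the other 46. Ribosomal protein genes made up 3.24% and 3.51% of these 2 libraries and 0.27% to 2.16% of the others, so results that rest on them are given with and without them. Fewer cells of a type and less RNA per cell cannot be told apart in such bulk samples.

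Of the genes that rose in ischemic microglia, the catalytic subunits *Psmb5* and *Psmb6* and the 19S deubiquitinase *Psmd14* are shown by the sequence before their start, since they had the largest changes of their roles. The sequences are those of RefSeq on GRCm38.p6, on the strand of the gene, and bases within an annotated exon were left out. They lie at chr14:54618023-54618245 (minus strand, 223 bases), chr11:70525107-70525356 (plus strand, 250 bases) and chr2:61711444-61711693 (plus strand, 250 bases). Capitals mark the core of the antioxidant response element, TGANNNNGC on either strand, a sequence read by NRF1 and related factors that can also hold the AP-1 letters TGANTCA.
Psmb5: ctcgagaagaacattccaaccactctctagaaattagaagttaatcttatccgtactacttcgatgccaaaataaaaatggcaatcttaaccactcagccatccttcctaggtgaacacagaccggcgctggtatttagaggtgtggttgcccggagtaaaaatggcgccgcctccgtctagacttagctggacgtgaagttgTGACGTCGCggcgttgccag
Psmb6: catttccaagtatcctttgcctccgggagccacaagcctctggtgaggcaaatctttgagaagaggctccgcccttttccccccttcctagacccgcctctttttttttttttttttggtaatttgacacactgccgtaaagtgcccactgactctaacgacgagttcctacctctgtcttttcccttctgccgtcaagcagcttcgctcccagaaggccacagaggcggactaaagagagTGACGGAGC
Psmd14: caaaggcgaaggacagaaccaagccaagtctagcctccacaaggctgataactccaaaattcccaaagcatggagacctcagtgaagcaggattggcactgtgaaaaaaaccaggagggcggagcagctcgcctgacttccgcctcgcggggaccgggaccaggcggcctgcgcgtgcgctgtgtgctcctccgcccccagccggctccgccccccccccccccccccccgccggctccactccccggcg
The window of *Psmb5* and that of *Psmb6* each held the core once, and that of *Psmd14* did not hold it. Within 250 bases before the start, it occurred in 11 of the 36 members with a promoter in the RefSeq table (30.6%), against 38.7% of all 27025 genes there. The core of the interferon-stimulated response element, GAAANNGAA, occurred in 2 of 36 (*Psmb3* and *Psmd4*) against 8.2% of all genes, and that of the gamma-activated site, TTCNNNGAA, in 1 of 36 (*Psmb8*) against 8.1%. Such matches are letters in a window and not tested sites.

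In microglia, 27 of the 43 genes were higher ipsilaterally and none was lower, with a median log2 fold change over the 43 genes of 0.87. Of all 13300 genes tested in microglia, 4.62% were called higher and 6.62% lower, and their median was -0.18 (limma, Benjamini-Hochberg adjusted p of at most 0.05). The 27 genes also passed the rule for regulated genes (a change of at least 1.5-fold and more than 10 normalized counts in all 6 libraries of a hemisphere), which 4.29% of all genes passed upward. All 27 belong to the 32 genes of the constitutive 26S particle, namely the 19S subunits, the common alpha subunits, the structural beta subunits and *Psmb5*, *Psmb6* and *Psmb7*. Within these 32 the log2 fold change ran from 0.59 to 1.43 with a median of 0.93. With all libraries none of the 11 other genes was called, and they ran from -0.73 to 0.77 with a median of 0.21. Without ipsilateral replicate 2, *Psme2* and *Psme3* among them were called higher and *Psmb9* lower.

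**Figure D1:**
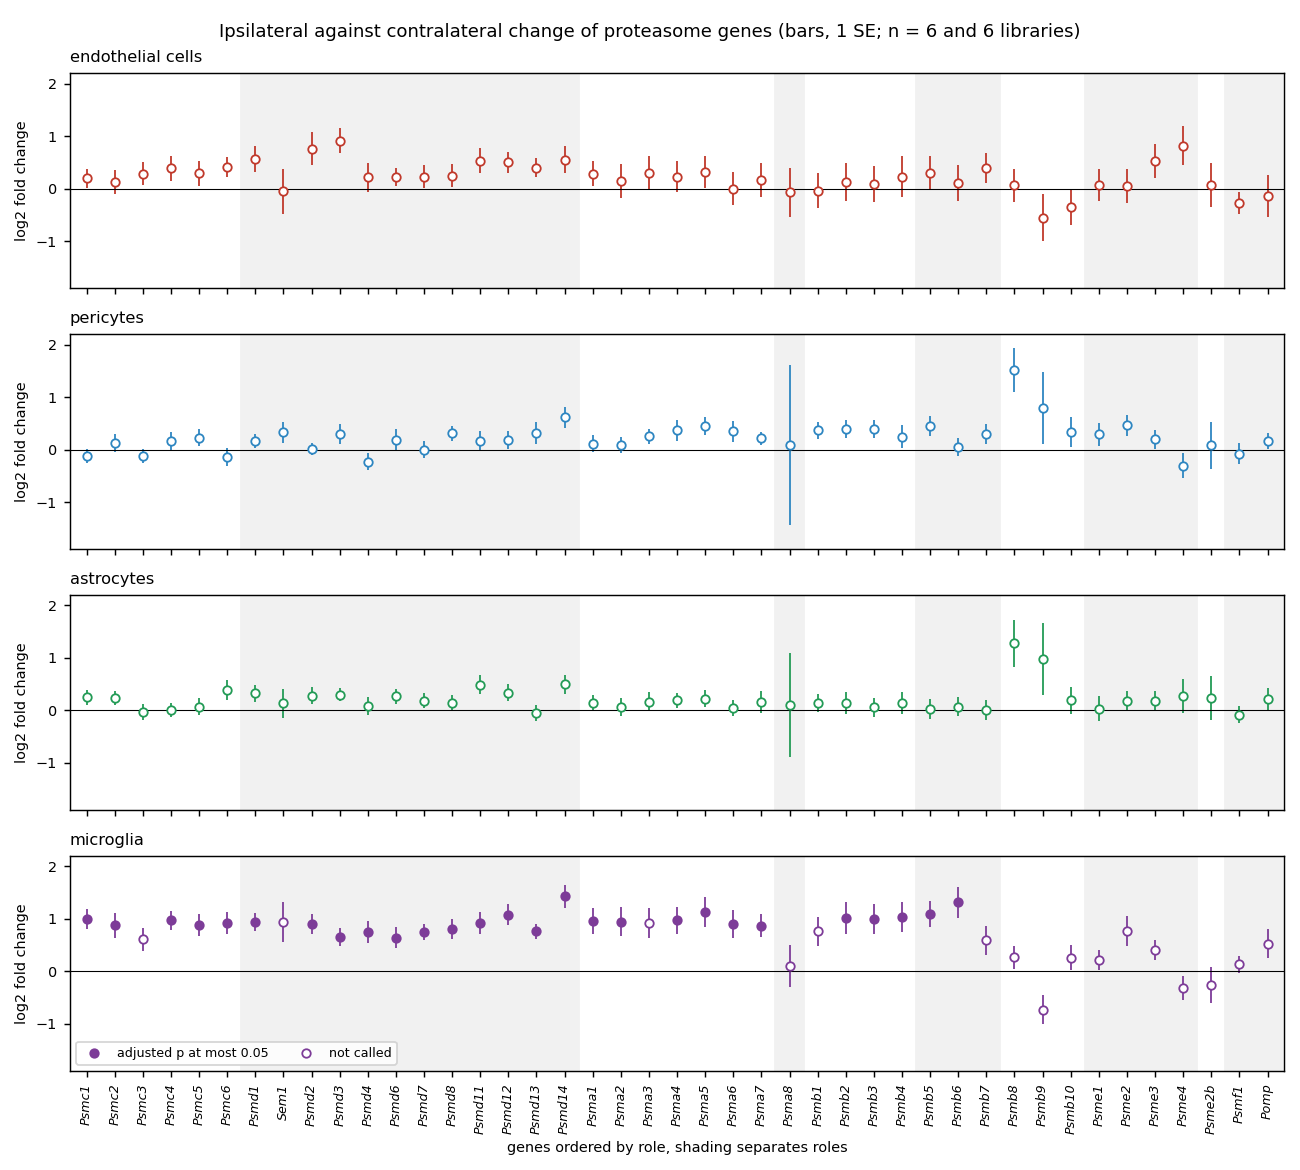
Log2 fold change of each of the 43 proteasome genes between ipsilateral and contralateral libraries (y axis) in the 4 cell types, with 1 SE; filled points have an adjusted p of at most 0.05. Microglia hold all 27 filled points, from 0.64 to 1.43, and none of the immunoproteasome genes, activators, inhibitor or assembly factor is among them.

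The rise in microglia covered both parts of the particle. Of the 19S genes, 5 of 6 ATPases and 11 of 12 other subunits were called, with medians of 0.90 and 0.86. Of the 20S genes, 6 of 7 common alpha subunits, 3 of 4 structural beta subunits and 2 of 3 catalytic subunits were called, with medians of 0.95, 1.01 and 1.09. The 5 core genes that missed the threshold were *Psmc3* (0.61, adjusted p = 0.083), *Psma3* (0.92, 0.0523), *Psmb1* (0.77, 0.0884), *Sem1* (0.93, 0.125) and *Psmb7* (0.59, 0.167), in the limma test. With the replicate block, *Psma3* and *Psmb1* were called as well (limma adjusted p = 0.0397 and 0.0392). Without ipsilateral replicate 2, *Psma3*, *Psmb1* and *Psmb7* were called higher as well.

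*Psmd14*, which removes ubiquitin chains from substrates as they enter the core, had the smallest p. Its normalized counts were 827 to 1497 in contralateral microglia with a median of 1056.5, and 2064 to 5171 in ipsilateral microglia with a median of 2853.5. The groups did not overlap and the log2 fold change was 1.43 (SE 0.22, limma adjusted p = 0.00146, higher in 6 of 6 pairs). The ATPase *Psmc4* went from 1286 to 1677 (median 1503.5) contralaterally to 2126 to 4358 (median 3005.0) ipsilaterally, again without overlap, with a log2 fold change of 0.97 (SE 0.17, limma adjusted p = 0.00313). The ATPase *Psmc1* went from 1139 to 1534 (median 1420.5) to 2047 to 4162 (median 2651.5), a log2 fold change of 1.00 (SE 0.19, limma adjusted p = 0.00377). Ipsilateral replicate 2 held the highest value of each of these 3 genes, and the other 5 ipsilateral libraries were still above all 6 contralateral ones.

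*Psmd1*, the largest scaffold subunit of the 19S base, was at 1624 to 2105 (median 1710.5) contralaterally and at 2117 to 4304 (median 3621.5) ipsilaterally. Its log2 fold change was 0.95 (SE 0.17, limma adjusted p = 0.00338), and here ipsilateral replicate 2 was the lowest of its group instead of the highest. *Psmd12*, a subunit of the 19S lid, was at 1054 to 1495 (median 1226.0) and at 1849 to 4568 (median 2562.5), with a log2 fold change of 1.07 (SE 0.20, limma adjusted p = 0.00389). In both genes the hemispheres did not overlap. Over the 43 genes, 24 had every ipsilateral microglial library above every contralateral one, against 3.78% of all genes, and 31 were higher in 6 of 6 pairs, against 9.49%.

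Of the constitutive catalytic subunits, *Psmb5* and *Psmb6* rose and *Psmb7* did not pass the test with all libraries. *Psmb6*, the caspase-like subunit (ENSMUSG00000018286, GRCm38 chr11:70525386-70527649, plus strand), was at 1943 to 2852 (median 2213.0) contralaterally and 3182 to 15272 (median 5516.5) ipsilaterally, a log2 fold change of 1.32 (SE 0.30, limma adjusted p = 0.0122). *Psmb5*, the chymotrypsin-like subunit (ENSMUSG00000022193, chr14:54614120-54617995, minus strand), was at 400 to 692 (median 507.5) and 702 to 2136 (median 1075.5), a log2 fold change of 1.09 (SE 0.25, limma adjusted p = 0.0124). Neither gene overlapped between hemispheres. *Psmb7*, the trypsin-like subunit (ENSMUSG00000026750, chr2:38588036-38644087, minus strand), was at 267 to 428 (median 361.5) and 250 to 832 (median 562.5), and its 0.59 (SE 0.27) did not pass. Its lowest ipsilateral value was that of replicate 2, the library with the highest values of *Psmb5* and *Psmb6*. Without that library *Psmb7* was called higher, where 7.25% of all genes were called higher.

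None of the 3 immunoproteasome subunits was called in microglia. *Psmb8* (ENSMUSG00000024338, chr17:34197790-34201454, plus strand) was at 1845 to 2462 (median 2086.5) in contralateral and 1825 to 4913 (median 2384.0) in ipsilateral microglia, with a log2 fold change of 0.26 (SE 0.21, limma adjusted p = 0.435). *Psmb10* (ENSMUSG00000031897, chr8:105935739-105938444, minus strand) was at 1375 to 1586 (median 1419.0) and 1164 to 3785 (median 1482.0), with 0.26 (SE 0.24, limma adjusted p = 0.493). *Psmb9* (ENSMUSG00000096727, chr17:34181988-34187764, minus strand) was at 553 to 824 (median 641.0) and 248 to 899 (median 322.5), with -0.73 (SE 0.27, limma adjusted p = 0.0984, lower in 5 of 6 pairs). The hemispheres overlapped for all 3 genes, and ipsilateral replicate 2 held the highest value of each. Without that library, *Psmb9* had a log2 fold change of -0.97 and was called lower (limma adjusted p = 0.00269).

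**Figure D2:**
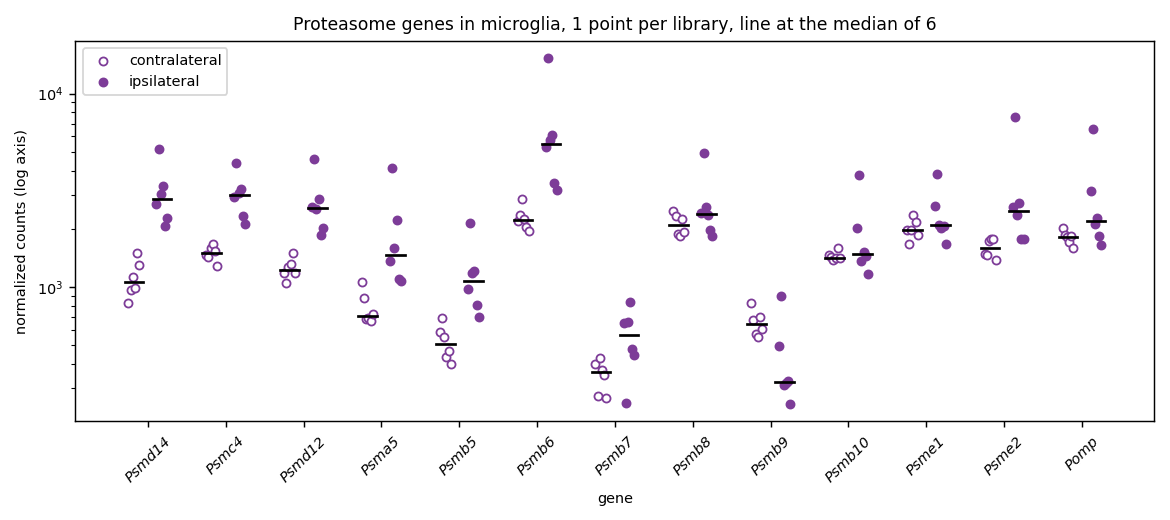
Normalized counts (log axis) of 13 proteasome genes in each of the 6 contralateral (open) and 6 ipsilateral (filled) microglial libraries, with the median as a line. *Psmd14*, *Psmc4*, *Psmd12*, *Psma5*, *Psmb5* and *Psmb6* do not overlap between hemispheres, while *Psmb7*, *Psmb8*, *Psmb9*, *Psmb10*, *Psme1*, *Psme2* and *Pomp* do; the topmost filled point is replicate 2 for every gene shown other than *Psmb7*.

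Activators and regulators in microglia were not called in either direction with all libraries. Without ipsilateral replicate 2, *Psme2* and *Psme3* were called higher, where 7.25% of all genes were called higher. *Psme1* and *Psme2* encode PA28-alpha and PA28-beta, which cap the core after interferon stimulation, and their log2 fold changes were 0.21 (SE 0.19) and 0.77 (SE 0.29), with limma adjusted p values of 0.489 and 0.0972. *Psme3*, the nuclear PA28-gamma, had 0.41 (SE 0.19, limma adjusted p = 0.17), and *Psme4*, the nuclear activator PA200, had -0.32 (SE 0.23, limma adjusted p = 0.384). *Pomp*, the chaperone that matures the 20S core, had 0.53 (SE 0.27, limma adjusted p = 0.22), and *Psmf1*, the inhibitor PI31, had 0.13 (SE 0.17, limma adjusted p = 0.636). *Psme2b* had -0.26 (SE 0.34) and is uncertain, since reads that fit both it and *Psme2* were not counted.

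The size of the rise differed between pairs of microglial libraries. The median log2 difference over the 43 genes was 0.70, 1.68, 0.80, 0.97, 0.46 and 0.45 in replicates 1 to 6, with 36 to 40 of 43 genes higher ipsilaterally in each pair, while the median over all genes tested lay between -0.23 and -0.06. The count of called genes was 33 (32 higher and *Psmb9* lower) without ipsilateral replicate 2, where 7.25% of all genes were higher. It was 13 without pair 1, 10 without pair 3 and 11 without pair 4, where the share of all genes called higher fell as well, to 2.71%, 1.99% and 2.31%. The median over the 43 genes was 0.87, 0.85 and 0.84 without these pairs, with 39 or 40 genes above 0. With the replicate block the count of called genes was 29, all higher, where 4.83% of all genes were called higher. In replicates 5 and 6 alone, which gives 2 libraries a group, 5 genes were called, 4 higher (*Psmd1*, *Psmd2*, *Psmb6* and *Psmc5*) and *Psmb9* lower (-1.19, limma adjusted p = 0.0305). Of all genes, 2.92% were called higher and 2.71% lower there, so the share of members called lower was near that of all genes. Of the 43 members, 36 had positive values, and the median over the 43 was 0.49. By the sample titles instead of the column names, 24 genes were higher and 5 lower in microglia, 19 of them among the 27 above, but 24.7% of all genes were then called higher and 26.5% lower. By the column names, that comparison sets ipsilateral pericytes against contralateral microglia.

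Levels of other genes moved with the hemisphere in the microglial gate. The summed level of 4 microglial markers was 180699 to 227678 contralaterally and 91419 to 163197 ipsilaterally, without overlap. *Csf1r* (-1.10) and *Tmem119* (-1.60) were called lower, while *Aif1* (-0.47) and *Cd68* (0.41) were not called. The summed level of 4 neutrophil markers was 61 to 865 and 1279 to 15167, with *Ly6g* at 0 in all contralateral and at most 6 in ipsilateral libraries, and that of 4 monocyte markers was 187 to 864 and 791 to 2146. Of 4 astrocyte markers, *Slc1a3* was called lower (-1.62) and *Gfap* (-0.49), *Aqp4* (-0.01) and *Aldh1l1* (0.44) were not. The summed markers of endothelial cells and those of pericytes overlapped between hemispheres. The highest neutrophil sum was in ipsilateral replicate 2. The part of infiltrating cells in the rise of the proteasome genes was not tested.

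In the other 3 cell types, none of the 43 genes was called in the stroke comparison. The background there was low as well: 0.491% of 13242 genes in endothelial cells, 1.06% of 13597 in pericytes and 0.367% of 15264 in astrocytes were called in either direction. With all libraries, 7, 8 and 4 members had an unadjusted limma p under 0.05, close to the 11.9%, 15.4% and 9.28% of all genes. The direction was mostly upward, with 35, 36 and 40 of 43 genes above 0 and medians of 0.23, 0.22 and 0.17, where the medians over all genes tested were -0.03, -0.04 and -0.06. The endothelial values rest on contralateral replicate 2. Without that library 23 endothelial members had an unadjusted limma p under 0.05, against 16.5% of all genes. Of the 43 members 40 were then above 0, with a median of 0.41. Genes higher in 6 of 6 pairs numbered 5, 8 and 8, against backgrounds of 4.77%, 4.55% and 5.02% of all genes.

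In endothelial cells the 5 genes with the lowest p encode 19S subunits. *Psmd3*, a lid subunit named here after its values were seen, was at 884 to 2255 (median 2027.5) contralaterally and 2645 to 3857 (median 3260.5) ipsilaterally. The hemispheres did not overlap and the log2 fold change was 0.92 (SE 0.24), but the adjusted p was 0.121. Without contralateral replicate 2, in which the sum over the 43 genes was highest and *Psmd3* lowest (884), 2 genes were called, *Psmd3* (0.73, limma adjusted p = 0.047) and *Psmd14* (0.77, limma adjusted p = 0.0432). Of all genes, 1.73% were then called. In the joint fit of all 48 libraries 2 were called, *Psmd3* (limma adjusted p = 0.0034) and *Psmd2* (limma adjusted p = 0.0478), where 1.83% of all genes were called. The immunoproteasome genes *Psmb8*, *Psmb9* and *Psmb10* had 0.07, -0.55 and -0.35 with all libraries and 0.28, -0.13 and -0.01 without contralateral replicate 2, and were called in neither. In pair 2, which holds contralateral replicate 2, the median over the 43 genes was -1.16, and in the other 5 pairs it was 0.18 to 0.84. The 0.84 was that of pair 1. With pair 1 left out and pair 2 kept, the median log2 fold change was 0.11, and 29 of 43 genes were above 0.

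In pericytes the largest change was that of *Psmb8*. It was at 79 to 317 (median 232.5) contralaterally and 310 to 1062 (median 471.0) ipsilaterally, higher in 6 of 6 pairs, and the groups overlapped at their edges. The log2 fold change of 1.52 (SE 0.42) had a limma adjusted p of 0.103 without and of 0.0359 with the replicate block. In the blocked limma fit 1 of 43 genes was thus called, a share near the 1.69% of all genes. *Psmb9* was at 23 to 66 (median 46.5) and 20 to 246 (median 93.0), with 0.79 (SE 0.69, limma adjusted p = 0.623), and *Psmb10* was at 251 to 665 (median 410.5) and 349 to 939 (median 528.5), with 0.33 (SE 0.29, limma adjusted p = 0.624). By the sample titles, in which these 6 libraries are the microglia, 20 genes were higher and 1 lower in pericytes, against 24.1% and 26.7% of all genes, and *Psmb8* had 3.76. By the column names, that comparison sets ipsilateral microglia against contralateral pericytes.

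Astrocytes followed with a similar pattern of *Psmb8* and *Psmb9* at lower levels. *Psmb8* was at 31 to 189 (median 100) contralaterally and 143 to 434 (median 197.0) ipsilaterally, higher in 6 of 6 pairs, with a log2 fold change of 1.28 (SE 0.44, limma adjusted p = 0.393). *Psmb9* was at 3 to 130 (median 36) and 36 to 117 (median 68.0), with 0.98 (SE 0.69, limma adjusted p = 0.725). These levels reached down to the floor in single libraries, and no proteasome gene of astrocytes was called under any alternative, the replicate block included. *Psmd3* was the only member without overlap between hemispheres in astrocytes, at 1713 to 2055 contralaterally and 2125 to 2798 ipsilaterally.

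The markers of microglia, which had the highest *Psmb8*, varied between these libraries. Their summed level was 6025 to 28388 in ipsilateral pericytes of replicates 1 to 4 and 267 to 277 in those of replicates 5 and 6. In the contralateral pericytes it was 532 to 11003 and 249 to 575. In replicates 5 and 6, where the sum was 575 or less on both sides, *Psmb8* was at 180 and 108 contralaterally and at 310 and 337 ipsilaterally. In astrocytes of replicates 5 and 6, with marker sums of 368 to 801, it was at 64 and 189 contralaterally and at 156 and 200 ipsilaterally.

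Markers of infiltrating cells moved in the same direction. The neutrophil sum had a median of 15 in contralateral and 2101 in ipsilateral pericytes, and of 75.5 and 928.5 in astrocytes, and the monocyte sum of 11.5 and 417 in pericytes and 42.5 and 183 in astrocytes. In replicates 5 and 6 the ipsilateral neutrophil sums were 50 and 155 in pericytes and 156 and 324 in astrocytes, against 41 and 1 and against 1 and 13 contralaterally. Endothelial cells also have high *Psmb8*, and the sum of their 4 markers overlapped between hemispheres in pericytes (792 to 3027 and 1263 to 6219), where *Cdh5* had 1.64 (limma adjusted p = 0.138). In pericytes of replicates 5 and 6 this endothelial sum was 1755 and 2074 contralaterally and 2032 and 6219 ipsilaterally. The highest endothelial sum of the pericytes was thus in ipsilateral replicate 6. In astrocytes of these replicates it was 476 and 960 contralaterally and 289 and 973 ipsilaterally. The part of RNA from other cells in the values of *Psmb8* was not tested.

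Each cell type's stroke change was then compared with the mean change of the other 3 in a limma fit of all 48 libraries. In microglia 1 of 43 genes was called, *Psmc1*, with a difference of 0.89 (SE 0.18, limma adjusted p = 0.00416), and 0.58% of all 15003 genes were called. The difference was above 0 for 39 of 43 genes, with a median of 0.61, and 29 had an unadjusted limma p under 0.05, as did 12.8% of all genes. With the replicate block 3 were called, *Psmc1*, *Psmb6* (1.24, limma adjusted p = 0.0288) and *Psmc4* (0.78, limma adjusted p = 0.0405), and without contralateral endothelial cells replicate 2 there were 4. Of all genes, 1.43% and 0.727% were called in these settings. Without pair 2 of all cell types the 2 called were *Psmd1* and *Psmd2*, and *Psmc1* was not called, where 0.427% of all genes were called. No member was called for endothelial cells, pericytes or astrocytes, where 0.04%, 0.0866% and 0.133% of all genes were called and 3, 8 and 3 members had an unadjusted p under 0.05, against 7.45%, 9.3% and 5.01% of all genes. For most members the change in microglia was therefore called within microglia but not as a difference from the other cell types.

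The ratio of each immunoproteasome subunit to the constitutive subunit it replaces was compared between hemispheres in 12 exact two-sided permutation tests, adjusted together. In microglia the log2 ratio of *Psmb8* to *Psmb5* was 2.04 ± 0.23 (SD, n = 6) contralaterally and 1.21 ± 0.14 ipsilaterally, a change of -0.82 with no overlap (exact permutation p = 0.00216, the smallest that 924 assignments can give, adjusted p = 0.00866). The ratio of *Psmb9* to *Psmb6* went from -1.79 ± 0.33 to -3.84 ± 0.39 (SD, n = 6), a change of -2.04 with the same exact and adjusted p and lower in 6 of 6 pairs. That of *Psmb10* to *Psmb7* went from 2.07 ± 0.29 to 1.74 ± 1.11, a change of -0.33 (exact permutation p = 0.541), with ipsilateral replicate 2 at 3.91. Without pair 2 this change was -0.70 and passed the adjusted threshold.

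In pericytes the ratio of *Psmb8* to *Psmb5* moved the other way, from -1.83 ± 0.77 to -0.76 ± 0.49 (SD, n = 6), a change of 1.07 without overlap (exact permutation p = 0.00216, adjusted p = 0.00866). In astrocytes it went from -2.87 ± 0.76 to -1.62 ± 0.65, a change of 1.25 that was higher in 6 of 6 pairs and missed the adjusted threshold (exact permutation p = 0.0195, adjusted p = 0.0584). In endothelial cells it went from 0.90 ± 0.26 to 0.67 ± 0.28 (exact permutation p = 0.162). The ratio of *Psmb9* to *Psmb6* in endothelial cells was lower in 6 of 6 pairs, by -0.66 (exact permutation p = 0.0346, adjusted p = 0.0831). The other 5 tests, of *Psmb9* to *Psmb6* in pericytes and astrocytes and of *Psmb10* to *Psmb7* in all cell types other than microglia, gave adjusted p values of 0.36 to 0.89. With the pairs kept together (replicate block, exact sign flips) the p of the 3 called ratios was 0.0312, the smallest that 64 sign patterns allow, and the adjusted p was 0.075. Whether the changes of a ratio differ between cell types was not tested.

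**Figure D3:**
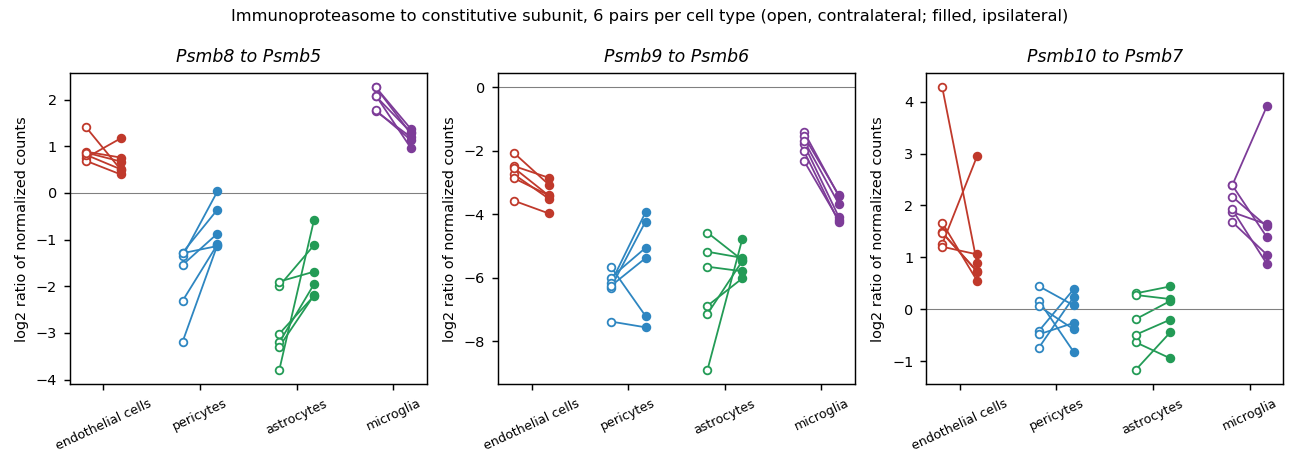
Log2 ratio of the normalized counts of each immunoproteasome gene to the constitutive gene it replaces (y axis), with a line from the contralateral (open) to the ipsilateral (filled) library of each of the 6 replicates. *Psmb8* to *Psmb5* falls in 6 of 6 microglial pairs and rises in 6 of 6 pericyte and astrocyte pairs, and *Psmb9* to *Psmb6* falls in 6 of 6 microglial and endothelial pairs.

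In the contralateral hemisphere the cell types differed more in the immunoproteasome genes than in the core. The sum over the 43 genes was 68640 to 206000 in endothelial cells (at most 90784 without replicate 2), 62683 to 89601 in pericytes, 46704 to 65529 in astrocytes and 56489 to 63822 in microglia. The median of *Psmb8* was 2086.5 in microglia (1845 to 2462), 1313.0 in endothelial cells (873 to 3148), 232.5 in pericytes (79 to 317) and 100 in astrocytes (31 to 189). Microglia and endothelial cells overlapped with each other, as did pericytes and astrocytes, and the former 2 lay apart from the latter 2. The median of *Psmb9* was 641.0, 517.5, 46.5 and 36 and that of *Psmb10* was 1419.0, 1284.5, 410.5 and 378.0 in the same order, with the same neighbours overlapping. The medians of *Psmb5* were 507.5, 753.5, 729.0 and 702.0, and those ranges overlapped for every pair of cell types.

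**Figure D4:**
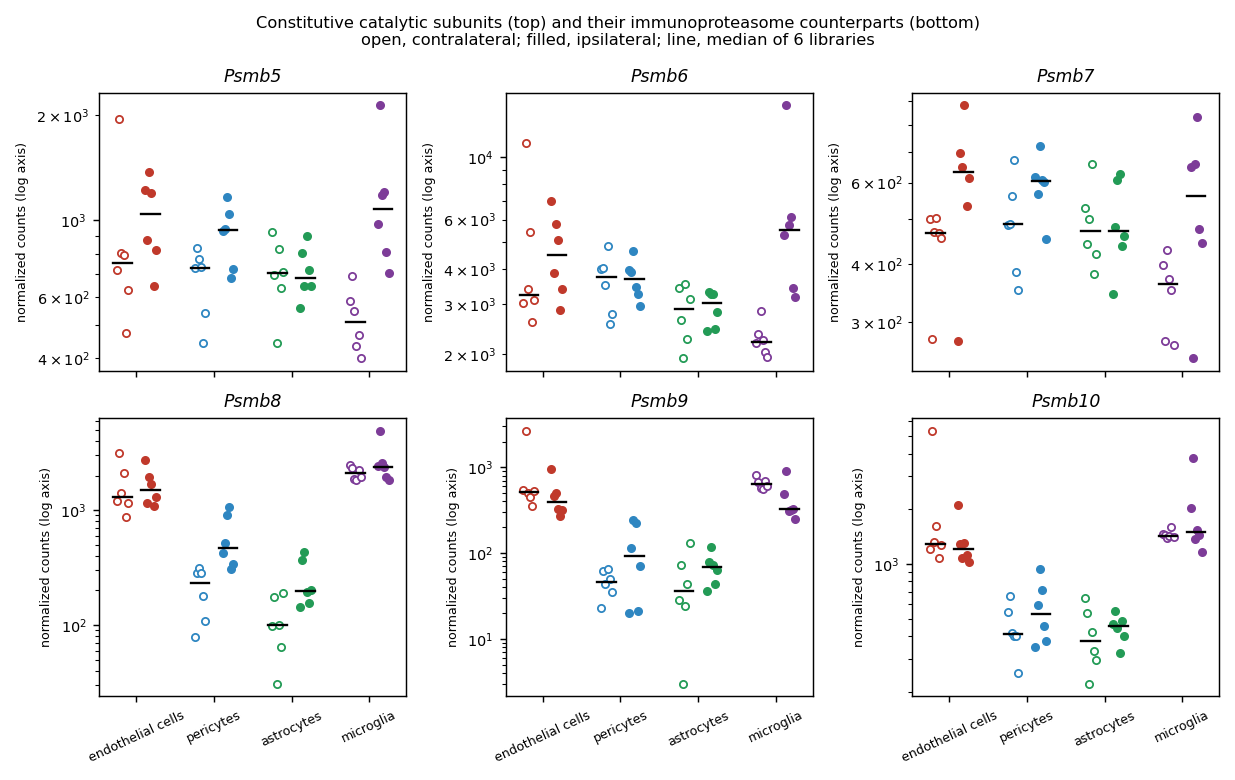
Normalized counts (log axis, each panel with its own range) of the 3 constitutive catalytic subunits (top) and of the immunoproteasome subunits that replace them (bottom), with 6 contralateral (open) and 6 ipsilateral (filled) libraries per cell type and the median as a line. *Psmb8*, *Psmb9* and *Psmb10* are high in endothelial cells and microglia and low in pericytes and astrocytes, and *Psmb8* medians range from 100 to 2086.5 contralaterally.

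Levels of different genes were set side by side per kb of transcript. In contralateral microglia the median of *Psmb8* was 1282 normalized counts per kb against 564.5 for *Psmb5*, and that of *Psmb10* was 1082 against 311.6 for *Psmb7*, while that of *Psmb9* was 474.1 against 2773 for *Psmb6*. In contralateral astrocytes all 3 immunoproteasome genes were under their counterparts, at 61.43 against 780.9, 288.3 against 406.5 and 26.63 against 3622. *Psmb6* had the highest median per kb of the 43 genes in endothelial cells (4069), pericytes (4707) and astrocytes (3622), and *Psmb2*, a structural beta subunit, in microglia (2957). In ipsilateral microglia *Psmb8* was at 1464 per kb and *Psmb5* at 1196, and *Psmb9* was at 238.5 and *Psmb6* at 6913.

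Against the mean of the other 3 cell types, 20 of 43 genes were higher in contralateral endothelial cells and 1, *Psme3*, was lower (-0.60, SE 0.19, limma adjusted p = 0.00833), where 17.7% and 28.3% of all 15003 genes were called in those directions. Of the members this was 46.5% and 2.33%. The largest differences were those of *Psma8*, the alpha subunit of the testis (3.21, SE 0.82), *Psmb9* (2.68, SE 0.47) and *Psmb8* (2.17, SE 0.31), and *Pomp* was also higher (1.92, SE 0.24, limma adjusted p = 8.94e-09). Without contralateral replicate 2, 12 genes were called, all higher, where 16.4% of all genes were called higher. *Psma8* was low everywhere, at 46 to 480 in contralateral endothelial cells and 43 to 192 in microglia, and at 0 to 61 and 0 to 20 in pericytes and astrocytes.

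In contralateral microglia 8 genes were higher and 14 lower (18.6% and 32.6% of the members), against 23.6% and 30.9% of all genes. The share of members was thus below that of all genes upward and near it downward. The 8 were *Psmb8* (2.82, SE 0.31), *Psmb9* (2.74, SE 0.47), *Psmb10* (1.16, SE 0.24), *Psma8*, *Psme1* (0.83, SE 0.20), *Psme2* (0.58, SE 0.22), *Psme3* (0.58, SE 0.19) and *Psme2b*, thus the immunoproteasome genes and 3 of 4 activators. The 14 were 13 core genes and *Psmf1* (-0.33, SE 0.14), and the largest of them were *Psmd4* (-0.67, SE 0.17), *Psmd7* (-0.65, SE 0.13) and *Psmc1* (-0.65, SE 0.12). *Psmb6* (-0.61, SE 0.23) and *Psmb5* (-0.48, SE 0.20) were among these 13. Without contralateral endothelial cells replicate 2, 8 were higher and 11 lower, against 24.2% and 31.8% of all genes. Under upper quartile scaling, 8 were higher and 8 lower (18.6% of the members each), below the 26.2% and 28.3% of all genes. With the replicate block *Psmb7* (-0.44) was called lower as well.

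Pericytes and astrocytes showed the reverse in the immunoproteasome genes. In pericytes 10 genes were higher and 4 lower (23.3% and 9.3% of the members), against 19.6% and 28.1% of all genes. The share of members was thus near that of all genes upward and below it downward. The 4 were *Psmb9* (-2.41, SE 0.47), *Psma8* (-2.04, SE 0.82), *Psmb8* (-1.85, SE 0.31) and *Psmb10* (-1.17, SE 0.24). Of the 10, 9 encode 19S subunits, led by *Psmd4* (0.84, SE 0.17), *Psmc3* (0.78, SE 0.15) and *Psmd2* (0.74, SE 0.17), and the tenth was the activator *Psme4* (0.70, SE 0.25). Without contralateral endothelial cells replicate 2, 13 were higher and 4 lower, against 20.2% and 28.8% of all genes.

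In astrocytes no gene was higher and 16 were lower (37.2% of the members), against 32.2% and 18.2% of all genes. The lowest were *Psma8* and *Psmb8* (both -3.15, SE 0.82 and 0.31) and *Psmb9* (-3.01, SE 0.47), followed by *Psme2b* (-2.17, SE 0.27), *Psme1* (-1.97, SE 0.20), *Psme2* (-1.52, SE 0.22), *Psmb10* (-1.38, SE 0.24) and *Pomp* (-1.21, SE 0.24). *Psmb5*, *Psmb6* and *Psmb7* were not called in astrocytes. Without contralateral endothelial cells replicate 2, 18 were lower and none higher, against 18.9% and 32.9% of all genes. Under upper quartile scaling, which moved the median of all genes in this comparison from 0.26 to -0.04, 30 were lower and none higher. Of all genes, 25.7% were then lower and 26.0% higher. Since each level is set against the other cell types, these 4 comparisons are linked by construction.

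**Figure D5:**
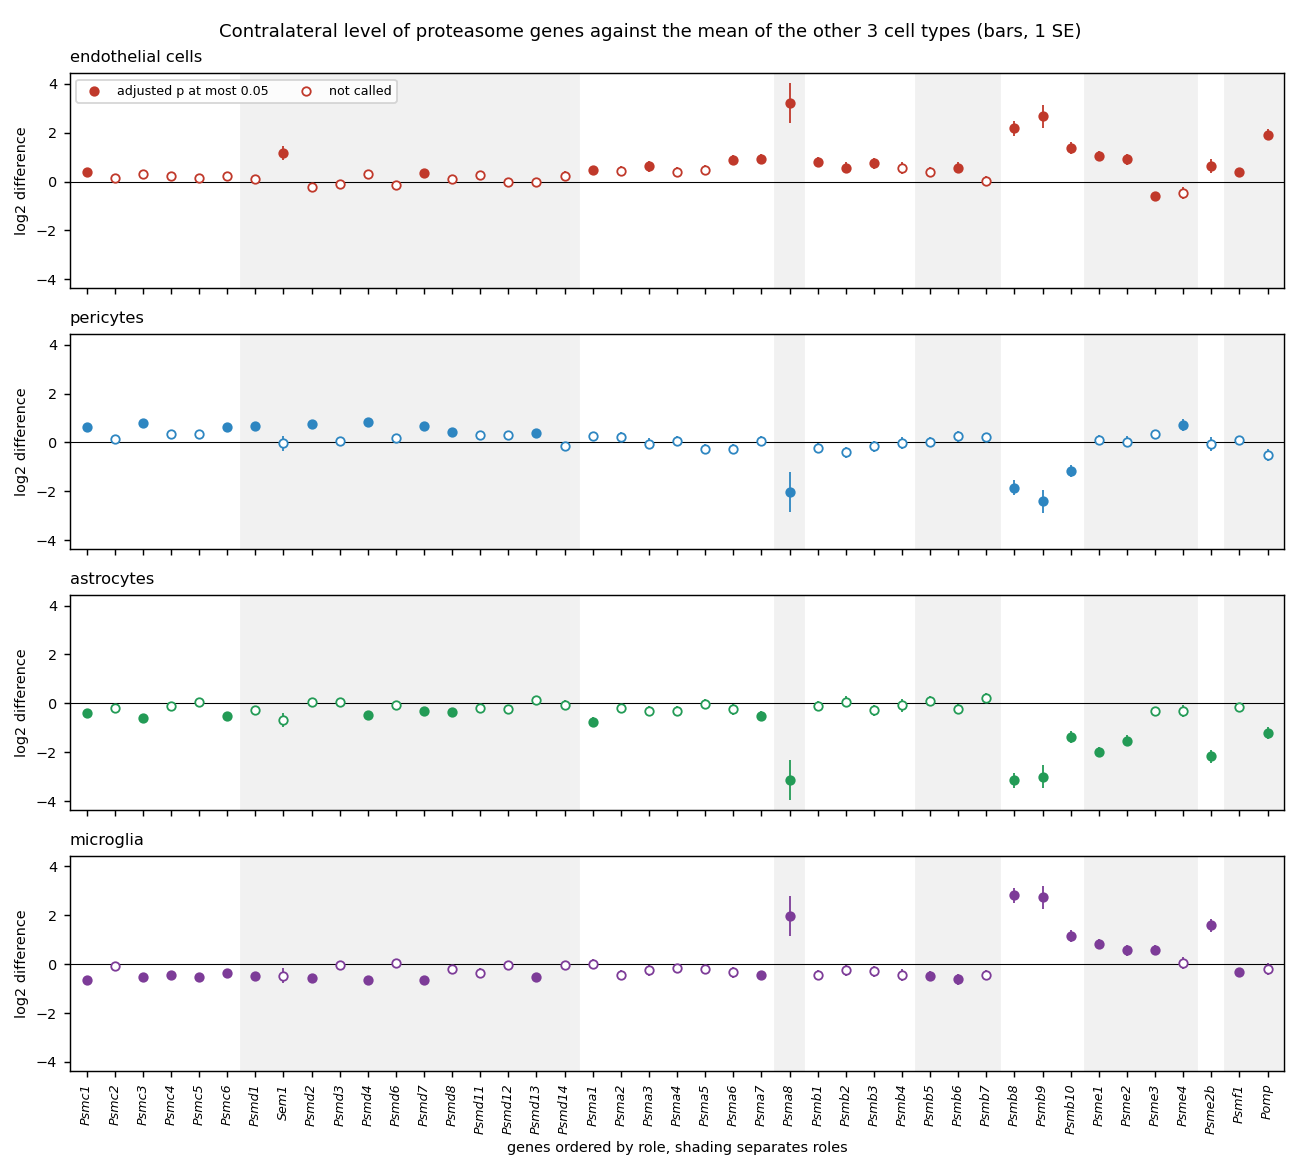
Log2 difference of each proteasome gene in contralateral libraries of a cell type from the mean of the other 3 cell types (y axis), with 1 SE and filled points at an adjusted p of at most 0.05. *Psmb8*, *Psmb9* and *Psmb10* lie above 0 in endothelial cells and microglia (1.16 to 2.82) and below 0 in pericytes and astrocytes (-3.15 to -1.17).

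Over the 8 group means of log2 levels, the genes outside the pathway most like *Psmb8* were *Tmsb4x*, *Gngt2*, *Srgn*, *Sp110* and *B2m*, with Pearson's r of 0.995, 0.99, 0.988, 0.987 and 0.986. Among the members, *Psmb10* (0.962) and *Psmb9* (0.957) were the most like it. These values are descriptive, since the 8 points share cell types and libraries.

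Of 36 genes listed for their ties to the proteasome, 35 were found in the table (assembly chaperones, transcriptional control, ubiquitin genes, shuttle factors and deubiquitinases, interferon control and peptide presentation). In ischemic microglia 2 of the 35 were called higher and none lower, a share near the 4.62% of all genes, with a median of 0.15. Both called genes are deubiquitinases that bind the 19S particle. *Usp14* averaged 2441 ipsilaterally and 1298 contralaterally (0.91, SE 0.15, limma adjusted p = 0.0023, higher in 6 of 6 pairs), and *Uchl5* averaged 1106 and 571.2 (0.90, SE 0.24, limma adjusted p = 0.0292, and 0.0685 with the replicate block). The 8 assembly chaperones had a median of 0.40 and none was called, and *Nfe2l1* had 0.15 (limma adjusted p = 0.743). The 10 genes of interferon control and peptide presentation had a median of -0.28 with none called, and in astrocytes, pericytes and endothelial cells their medians were 0.55, 0.37 and 0.16, also with none called.

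In pericytes, where 1.06% of all genes were called, 1 of the 35 was called, *Ddi2*, the protease that activates NRF1, which averaged 536.8 ipsilaterally and 261.3 contralaterally (1.07, SE 0.22, limma adjusted p = 0.0363, and 0.0528 with the replicate block). In endothelial cells and astrocytes none of the 35 was called, with medians of 0.09 in each.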

How the data were processed

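The authors trimmed the reads (Trimmomatic 0.38), aligned them to GRCm38 (STAR 2.6.1d), counted them on genes (featureCounts 1.6.3) and normalized them (DESeq2 1.18.1), tools given in the submitters' processing notes. The values the authors deposited are normalized counts rounded to whole numbers, a score in which 1 read has a different worth in each library, so no count test was run. The worth of 1 read was estimated from the spacing of low values.

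Stroke changes were tested per cell type (12 libraries), and levels and differences between cell types in 48 libraries, with limma 3.58.1 (trend) in R 4.3.3 on log2(value + 1). Genes averaging at least 10 were kept, and tests were two-sided, Benjamini-Hochberg adjusted over all genes kept and tried on simulated data. P and adjusted p values are limma's unless an exact test (Python 3.11.15) is named. Transcript lengths are those of principal transcripts in GENCODE M21.

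The catalytic genes, activators, *Pomp* and *Psmf1* were named throughout, and up to 5 (stroke) or 3 (others) called genes per direction. Other genes were named after their values were seen. Members, lists and rules were chosen with earlier results of these data known. Alternatives were pseudocounts of 0.1 and 10, other filters (none, 50), the replicate block, joint and rescaled fits, upper quartile scaling, 24 contralateral libraries alone, pairs left out, replicates 1 to 4 and the titles' cell types. Replicates 5 and 6 alone and single libraries left out were added after seeing the data.

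The hemispheres of each replicate share a pool of animals, which pairs them. By the paper, the cell types were isolated together from the same pooled tissue, so libraries of different cell types can share animals too. The main comparisons between cell types did not model this sharing. For the contralateral levels the replicate block did so as an alternative. Deviations of same-numbered libraries from their group means correlated across genes by 0.21, 0.21, 0.37 and 0.12 on average in endothelial cells, pericytes, astrocytes and microglia, against -0.04, -0.04, -0.07 and -0.02 for other numbers.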

Additional observations from a re-analysis of the deposited data

Results flagged for a closer look

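In 96 groups of 6 libraries, made of the 12 catalytic, activator and accessory genes in 8 groups, 21 single libraries stood apart from the other 5 of their group by Dixon's criterion, where chance gives about 1 in 20. Contralateral endothelial cells replicate 2 held 9 of these values: *Psmb9* at 2679, *Psmb10* at 5342, *Psmb5* at 1951, *Psmb6* at 11270, *Psme1* at 5856, *Psme2* at 5639, *Pomp* at 21563 and *Psmf1* at 1268 were above the rest, and *Psmb7* at 275 was below it. Ipsilateral microglia replicate 2 held 7: *Psmb8* at 4913, *Psmb10* at 3785, *Psmb5* at 2136, *Psmb6* at 15272, *Psme2* at 7549 and *Pomp* at 6570 were above the rest, and *Psme3* at 1020 was below it. Ipsilateral endothelial cells replicate 1 stood above its group in *Psmb9* (967), *Psmb10* (2104) and *Psme1* (3659). *Psme3* was at 2042 in ipsilateral pericytes replicate 4 and *Psmf1* at 1277 in contralateral pericytes replicate 1. In both libraries with most of these values, the 100 most abundant genes took 36.12% and 43.44% of the normalized counts, against 22.87% to 34.77% in the other 46, and the part of this in the proteasome values was not tested.

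The stroke change of *Psmc1* in microglia differed from the mean change of the other cell types by 0.89 on the log2 scale (limma adjusted p = 0.00416), the difference between groups described in the report.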

How the results depend on the processing

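Of the alternatives, the cell types of the sample titles changed most. The column names, by which 16 of 16 markers were highest in their own cell type, exchange the titles' ipsilateral pericytes and microglia. By these names, the titles' changes in pericytes and microglia set different cell types against each other. Under the titles 21 members were called for the stroke change in pericytes (0 by the column names), where 50.8% of all genes were called, and 15 and 17 for the difference of microglia and of pericytes from the other cell types (1 and 0), where 50.2% and 51.0% were. Taken as shares of the members, all of these counts are under the share of all genes, the first of them only slightly. Also, the values of *Psmb8* and *Psmb10* for microglia under the titles were -1.98 and -1.42, and the difference of *Psmb10* was -2.04. By the column names these set ipsilateral pericytes against contralateral microglia and are not a stroke change within microglia. The ratio of *Psmb10* to *Psmb7* then changed by -2.20 in microglia and 1.91 in pericytes, and that of *Psmb9* to *Psmb6* by 2.46 in pericytes, all past the adjusted threshold, which the 1.25 of *Psmb8* to *Psmb5* in astrocytes also passed among those 12 tests.

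The count of 27 called members in microglia was 14 with no filter on low values, and 10 to 33 with a pair or a library left out. With no filter more genes were tested, and 4.26% of them were called. The lowest counts, 13, 10 and 11, came without replicates 1, 3 and 4. The count was 5 in replicates 5 and 6 alone, where 5.63% of all genes were called. The replicate block gave 1 called member in pericytes and 3 for the difference of microglia, and a joint fit gave 2 in endothelial cells and 1 in pericytes. In the same order, 1.69% and 1.43% of all genes were called with the block and 1.83% and 2.37% in the joint fit. The difference of microglia had 2 called members with no filter, 3 with a pseudocount of 10 and 1 to 4 with libraries left out. Of all genes, 0.801%, 1.34% and 0.226% to 0.727% were called there. Leaving out libraries gave 0 to 2 in endothelial cells for the stroke change and 12 to 21 for their contralateral level, and upper quartile scaling gave 30 in astrocytes for theirs. Against 8 higher and 14 lower in microglia, that scaling gave 8 and 8. Under it 25.7% of all genes were lower in astrocytes, and 26.2% were higher and 28.3% lower in microglia.

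With the replicate block the ratio changes -0.82 and -2.04 in microglia and 1.07 in pericytes lost their call (adjusted p = 0.075, exact sign flips), as did the same 3 in replicates 1 to 4 alone (-0.77, -2.10 and 1.26), where few assignments exist. With pairs left out, the ratio of *Psmb10* to *Psmb7* ran from -1.23 to -0.21 in endothelial cells and from -0.70 to -0.18 in microglia, that of *Psmb8* to *Psmb5* from -0.37 to -0.10, and that of *Psmb9* to *Psmb6* from -0.71 to -0.59 in endothelial cells, and each passed the adjusted threshold at its most negative value, reached without replicates 1, 2, 1 and 4 in that order. The replicate block changed no other call among the named results of these comparisons than those given here and in the report. The cause of these differences was not tested. Depth limits the values of *Psma8* in pericytes and astrocytes and of *Psmb9* in astrocytes, some of which lie under the worth of 3 reads. The replicates are pools, so p values measure the spread between pools.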
